A study of Mus musculus with 19 samples.

Results

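Transcripts of 37 genes of glycolysis and of the response to low oxygen were followed through the early mouse lens, the tooth germ and whole embryonic bodies. The genes were listed by function: 17 glycolytic enzymes, 4 carriers of glucose and lactate, 3 regulators of glycolytic flux, 2 alpha subunits of hypoxia-inducible factor (HIF) and 11 genes known as HIF targets. A probe set, the group of short probes that reads 1 transcript on the array, named that gene alone for 33 of the 37, and all 33 passed the filter on low signal. Over the whole array, 18193 genes had such a probe set and 13320 were tested. The remaining 4 genes have no value of their own in what follows: Gapdh and Bnip3l share their probe sets with pseudogenes, and no probe set was named Gpi1 or Eno1 in the annotation used here.

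All embryos were wild-type mice of the ICR strain, with no treatment or allele named, and ages were counted from the day of the vaginal plug. The lens series holds hand-dissected lens of E10.5, E11.5 and E12.5 (3 arrays each) and whole embryo labelled E10.5-12.5 (4 arrays). The tooth series holds tooth germ of E13.5 (3 arrays) and whole embryo labelled E11.5-13.5 (3 arrays). The purpose of the series was a search for transcripts enriched in lens or tooth, as a guide to cataract genes. The labels do not say whether replicates came from separate litters or pools, so a p-value covers no more than the spread among the arrays at hand, whose small number bounds the precision. Nor do they say which day each whole-body array came from, so a body group covers a span of ages.

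Glycolysis splits glucose into pyruvate in the cytoplasm, and lactate dehydrogenase can then reduce pyruvate to lactate, which leaves the cell through monocarboxylate transporters. The lens holds no blood vessels inside it and is known for drawing much of its energy from this pathway. In low oxygen the prolyl hydroxylases Egln1 and Egln3 no longer mark HIF alpha subunits for breakdown, and HIF then switches on many glycolytic enzymes together with genes for vessel growth, collagen hydroxylation and mitochondrial turnover. HIF activity is set mostly on the protein, so transcript levels of its subunits do not report it.

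Levels below are log2 signals, with the standard deviation (SD) between arrays, and a difference of 1 is 2-fold. Differences carry the standard error (SE) of limma's linear model over all 19 arrays. A gene was called when its p-value, adjusted by Benjamini-Hochberg over all genes tested, was under 0.05. A level depends on the probes of its set, so levels are compared between groups and never between genes. In bulk tissue, fewer cells of a type and less RNA per cell cannot be told apart.

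The tooth-series arrays stood apart from the lens-series arrays in control probe sets that read the 2 ends of a transcript. For Gapdh, the 3′ signal minus the 5′ signal was between -0.10 and 0.05 on the 13 lens-series arrays, a ratio of 0.93 to 1.04. On the 6 tooth-series arrays it was 2.82 to 4.08, a ratio of 7.04 to 16.94, and the range for tooth germ (2.82 to 3.13) did not reach that of its body (3.84 to 4.08). The beta-actin control sets differed in the same way (0.21 to 0.48 against 4.22 to 5.05). Series, days of the body and this signal cannot be told apart, so levels were compared within a series. Comparisons within the lens series had nearly equal values of this measure, while the tooth germ differed in it from its own body.

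**Figure D1:**
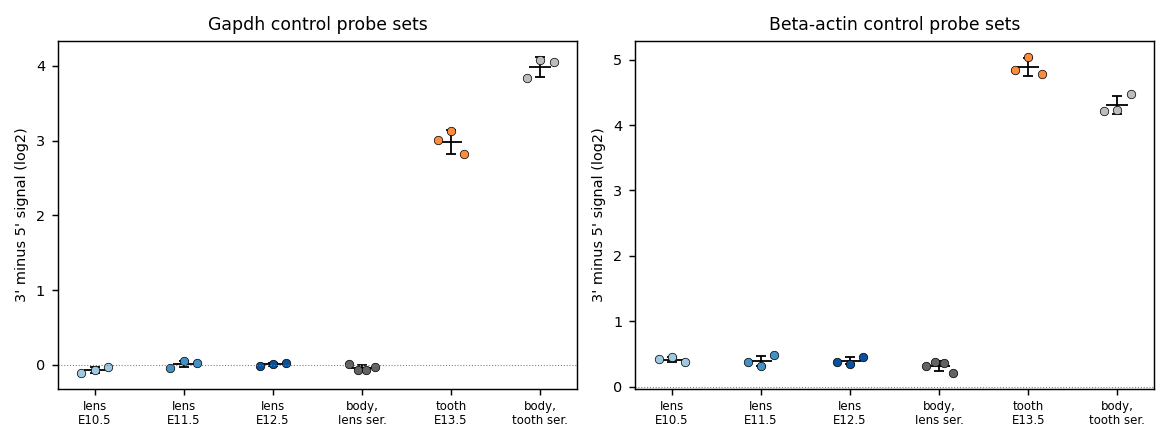
The 3′ minus 5′ signal (log2, y axis) of the Gapdh and beta-actin control probe sets on each array, by group; bars show the mean and SD. The 13 lens-series arrays lie at -0.10 to 0.05 for Gapdh, and the 6 tooth-series arrays at 2.82 to 4.08.

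All 7 lens markers were higher in lens than in body at each stage, and their summed intensity was 20460 to 37310 in lens arrays against 1004 to 1127 in body arrays. In the tooth germ, 5 of the 6 tooth markers tested were higher than in its body, with sums of 4696 to 5062 against 1409 to 1562. Markers of other tissues moved with every comparison against the body. The 11 neuron markers summed to 322 to 440 in lens and to 13330 to 15380 in body; the 11 muscle markers to 370 to 625 against 10590 to 12810, and the 8 liver markers measured to 254 to 425 against 15970 to 19490. The 9 erythroid markers measured reached 15280 to 31870 in lens, below the 37330 to 40820 of the body but far from absent. Endothelial markers summed to 1683 to 2156 in lens against 2025 to 2081, and macrophage markers were 1280 to 2359 in lens against 1076 to 1452. No marker is listed at 0, since an array gives every probe set a signal. The part of these other cells in the differences below was not tested.

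Glycolytic enzymes differed between lens and body in both directions at every stage. At E10.5, 8 of the 14 enzymes measured were higher in lens and 5 lower, with a median difference of 0.38 against -0.01 over all genes. Of the 8 higher, 7 kept the call when each array was left out in turn, as did all 5 lower ones. Over all 33 genes, 13 were higher and 8 lower, where 13.5% and 19.1% of all genes tested were called in those directions. At E12.5, 3 enzymes were higher and 8 lower (median -0.31), a lower count of 5 to 8 when each array was left out in turn, and all 33 genes gave 6 higher and 12 lower, against 16.6% and 26.7% of all genes. At E11.5, 5 enzymes were higher and 5 lower (3 to 5 lower with each array left out), and 9 and 11 of the 33 genes against 14.7% and 22.3%. The 3 comparisons share the same 4 body arrays.

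**Figure D2:**
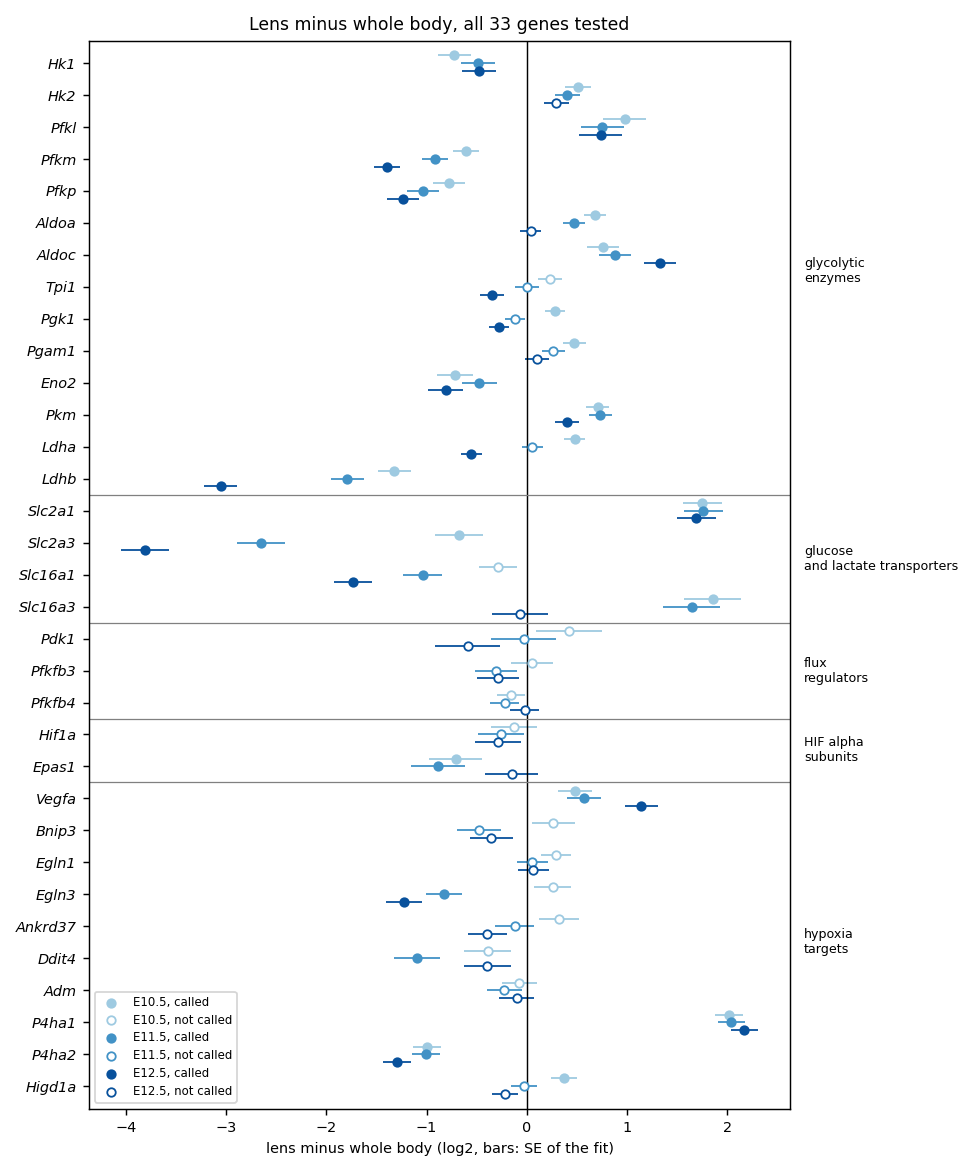
Lens minus whole body (log2, x axis; bars are the SE of the fit) for the 33 genes tested, in role groups, with 1 colour for each of the 3 lens stages; filled points were called. P4ha1 and Slc2a1 lie near 2 at every stage, Ldhb and Slc2a3 move further left with each stage, and most regulators and HIF targets lie between -1 and 1.

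Phosphofructokinase, which commits sugar to glycolysis, has 3 genes that divided between the tissues. The liver-type gene Pfkl was at 10.81, 10.56 and 11.09 in the E10.5 lens, 10.76, 10.91 and 10.13 at E11.5, then 10.62, 10.76 and 10.36 at E12.5, against 9.47, 9.65, 9.84 and 10.42 in body. It was higher by 0.98 ± 0.21 (SE) at E10.5, 0.75 at E11.5, then 0.74 at E12.5 (limma adjusted p = 0.00129, 0.00886 and 0.0085). The E11.5 call rested on 1 array, since without E11.5 replicate 2 the difference was 0.60 with a limma adjusted p of 0.0547. The muscle-type gene Pfkm was lower instead, by 0.60 at E10.5 and 1.40 at E12.5, and its E12.5 lens arrays (7.75 to 7.96) did not overlap the body (9.04 to 9.38). Pfkp, the platelet-type gene, was also lower at all 3 stages (-0.78, -1.04 and -1.23), at signals of 4.94 to 5.88 in lens, while its 2 other probe sets gave -0.27 and 0.04 at E12.5, neither called. The set at 0.04 read 4.14 in lens and 4.095 in body. Those means lie under 4.71, the 95th percentile of control probe sets with no mouse target.

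Aldolase, which splits the sugar, and pyruvate kinase, which makes pyruvate, were higher in the lens. Aldoc read 8.09, 8.04 and 8.02 in the E10.5 lens, 7.93, 8.44 and 8.14 at E11.5, then 8.77, 8.57 and 8.51 at E12.5. Its 4 body arrays read 7.25, 7.40, 7.31 and 7.21, below every lens array. The difference was 0.76 ± 0.16 at E10.5 and 1.33 ± 0.16 at E12.5, a 2.51-fold excess (limma adjusted p = 1.36e-06). Its other probe set gave -0.02 at E12.5, at means of 3.45 in lens and 3.46 in body. Both lie under the 4.71 of the controls, so that set can show little of a difference either way. Aldoa, the widely expressed aldolase, was higher by 0.68 at E10.5 and 0.47 at E11.5, and at E12.5 its lens arrays (11.87 to 11.97) lay inside the range of the body (11.77 to 12; difference 0.04, limma adjusted p = 0.814). Pkm, the pyruvate kinase of most embryonic cells, was higher at each stage (0.71, 0.73 and 0.40), with every lens array above every body array.

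The hexokinases, which trap glucose in the cell, went opposite ways. Hk2 was higher by 0.51 at E10.5 and 0.40 at E11.5, and its 0.29 at E12.5 was not called (limma adjusted p = 0.0701). Hk1 was lower at each stage (-0.72, -0.49 and -0.48). The calls at E11.5 for both and at E12.5 for Hk1 were lost without some of the arrays, among them body replicate 1 for both.

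Lactate dehydrogenase showed a wide divergence between its 2 main subunits. Ldhb, the heart-type subunit, read 9.95, 9.63 and 9.74 at E10.5, 9.65, 9.08 and 9.19 at E11.5, 8.31, 8.07 and 7.74 at E12.5, and 11.10, 11.13, 10.96 and 11.20 in body. No lens array reached the body, and the E12.5 arrays lay below all earlier ones. The lens was 2.50-fold lower at E10.5 and 8.31-fold lower at E12.5 (-3.06 ± 0.17, limma adjusted p = 2.14e-11). Ldha, the muscle-type subunit that HIF is known to induce, read 12.73, 12.76 and 12.78 at E10.5, 12.42, 12.35 and 12.22 at E11.5, then 11.85, 11.71 and 11.60 at E12.5, against 12.24, 12.28, 12.33 and 12.24 in body. It thus began above the body (0.48 ± 0.10), overlapped it at E11.5 (0.06, limma adjusted p = 0.721) and ended below it (-0.55 ± 0.10).

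Among the listed enzymes between aldolase and pyruvate kinase no difference from body reached 1 log2 unit. Pgam2 and Eno3, which are outside the list, are given further below. Tpi1, which interconverts the 2 triose phosphates, was lower in lens by 0.34 at E12.5 and not called before. Its 2 other probe sets were called higher at E10.5 (0.33 and 0.32) and lower at E12.5 (-0.31 and -0.415). Pgk1, which yields ATP, was 0.28 higher at E10.5 and 0.28 lower at E12.5, and each of those calls was lost without some of the arrays, as was that of Tpi1. Pgam1 was higher at E10.5 (0.47) and not called later (0.26 at E11.5, then 0.10 at E12.5). Eno2, the neuronal enolase, was lower at every stage (-0.72, -0.47 and -0.81). The E11.5 call was lost without any of 4 arrays, and without body replicate 4 the value was -0.30 (limma adjusted p = 0.156). In addition, Eno2 signals of 4.43 to 5.17 in lens lay near 4.71, the 95th percentile of control probe sets with no mouse target. Gapdh could be read only through its 3 control probe sets, added to the fit after the data had been seen. They were 0.32 to 0.34 higher at E10.5 and 0.04 to 0.10 higher at E12.5, and the E10.5 excess passed the test at the 3′ and 5′ sets (limma adjusted p = 0.0359 and 0.0404) and missed it at the middle set (0.0542).

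The carriers split as sharply as the enzymes. Slc2a1 encodes GLUT1, a glucose carrier of many embryonic and barrier tissues, and read 12.69, 12.93 and 12.52 at E10.5, 12.63, 12.70 and 12.85 at E11.5, then 12.66, 12.62 and 12.69 at E12.5. The body read 10.81, 11.28, 11.31 and 10.47, so every lens array lay above it, by 1.75, 1.76 and 1.69 (± 0.19 each; 3.36-, 3.39- and 3.23-fold). Its 2 other probe sets gave 1.98 and 2.38 at E12.5, both called. Slc2a3 encodes GLUT3, known as the neuronal glucose carrier. It read 9.38, 9.14 and 9.21 at E10.5, 6.52, 7.81 and 7.48 at E11.5, 5.83, 6.64 and 5.88 at E12.5 and 9.90, 9.76, 9.89 and 10.16 in body. The lens was thus slightly below the body at E10.5 (-0.68 ± 0.24, a call lost without any of several arrays) and 14.0-fold below it at E12.5 (-3.81 ± 0.24, limma adjusted p = 1.56e-10).

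The lactate carriers left the lens lower at E12.5 than at E10.5. Slc16a3 encodes MCT4, known to export lactate from glycolytic cells, and read 8.71, 8.17 and 8.60 at E10.5, 9.22, 8.21 and 7.43 at E11.5, then 6.84, 6.65 and 6.23 at E12.5. Against a body of 6.35, 6.70, 6.64 and 6.88, it was 3.61-fold higher at E10.5 and 3.12-fold higher at E11.5, and overlapped the body at E12.5 (-0.07 ± 0.28). Slc16a1 encodes MCT1, which carries lactate either way. It read 10.35, 10.13 and 10.21, then 9.12, 9.68 and 9.63, then 8.50, 8.99 and 8.86 through the 3 stages, and 10.69, 10.63, 10.11 and 10.64 in body. The difference was -0.29 at E10.5 (limma adjusted p = 0.29), -1.04 at E11.5, then -1.73 at E12.5.

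**Figure D3:**
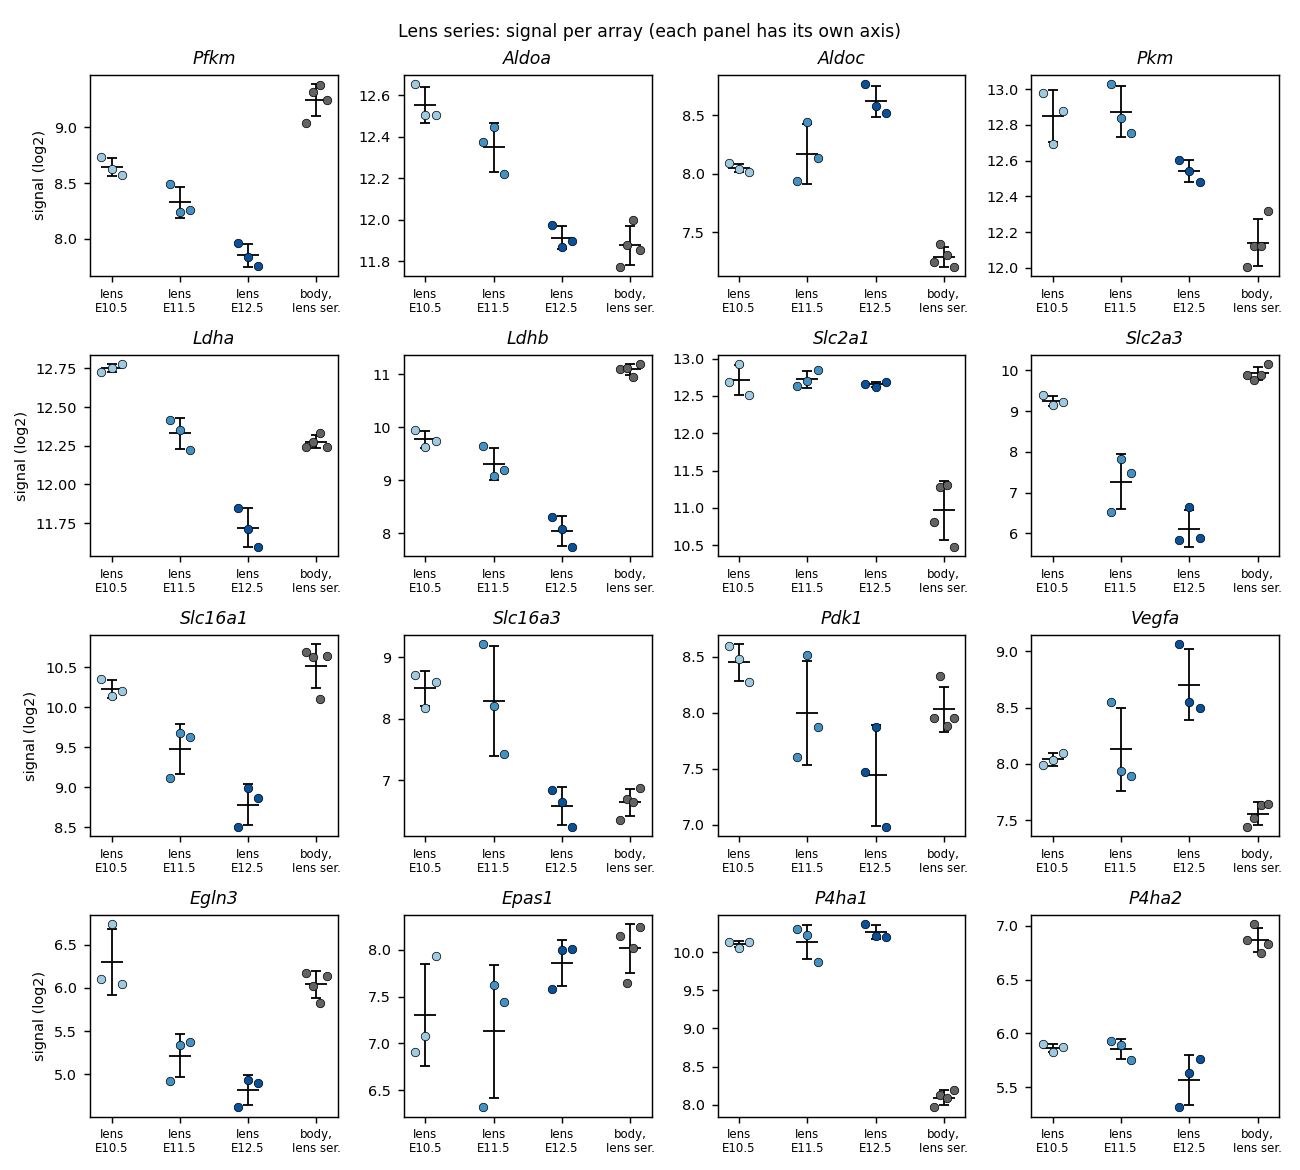
Log2 signal per array (y axis, its own scale in each panel) of 16 genes in the lens of each stage and in the whole body of the lens series; bars show the mean and SD. Ldhb, Slc2a3 and Slc16a1 step down through the lens stages, Slc2a1 and P4ha1 lie above the body at every stage, and Aldoc and Vegfa lie highest at E12.5.

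The regulators of flux and the HIF subunits gave few calls. Pfkfb3 and Pfkfb4, whose products set the level of the phosphofructokinase activator fructose 2,6-bisphosphate, ranged from 5.79 to 7.09 in the lens series and were not called at any stage. Pdk1, which shuts pyruvate dehydrogenase off, was not called against the body either on its own probe set (0.42, -0.03 and -0.59; SE 0.33). Its 3 other probe sets were called in part: 2 were higher at E10.5 (1.08 and 0.68), 1 was higher at E11.5 (0.63) and another was lower at E12.5 (-0.99), so the Pdk1 result depends on the probes. Hif1a was at 10.25 to 11.25 in lens and 10.83 to 11.37 in body, and its difference at E12.5 was -0.28 with a 95% interval from -0.77 to 0.20, while another of its probe sets was called higher at E10.5 (0.66) and E11.5 (0.59). That Hif1a set read 5.28 and 5.20 at those stages against 4.62 in body, near the 4.71 of the controls. Epas1, which encodes HIF-2 alpha and is known from endothelium, was lower by 0.71 at E10.5 and 0.89 at E11.5. Without E11.5 replicate 1 that E11.5 value was -0.48 with a limma adjusted p of 0.117, and the E10.5 call was lost without any of several arrays. The other Epas1 probe set was not called (-0.13 and 0.23). Of 10 endothelial markers 3 were lower in lens at each stage and 1 was higher at E11.5. Over all genes, 19.1%, 22.3% and 26.7% were lower at the 3 stages. The marker sums were 1690 to 2011 at E10.5, 1683 to 2156 at E11.5 and finally 1795 to 1864 at E12.5 against 2025 to 2081 in body. The part of endothelium in the Epas1 difference was not tested.

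HIF targets gave calls in both directions, with shares at E12.5 near those of all genes. Of 10, 3 were higher and 1 lower at E10.5, against 2 and 3 at E11.5 and finally 2 and 2 at E12.5, where 16.6% and 26.7% of all genes were called, with medians of 0.28, -0.17 and -0.28. The 3 higher at E10.5 became as few as 1 without E10.5 replicate 1 or 2 or body replicate 1 or 2. P4ha1, the catalytic subunit of a collagen prolyl hydroxylase, gave the widest gap of any member on the higher side at E12.5. It read 10.13, 10.06 and 10.13 at E10.5, 10.30, 10.22 and 9.87 at E11.5, 10.37, 10.21 and 10.20 at E12.5, and 7.96, 8.12, 8.09 and 8.19 in body. The lens was 4.05-, 4.11- and 4.50-fold higher through the stages (2.17 ± 0.14 at E12.5, limma adjusted p = 1.89e-10), and a further probe set gave 2.17 at E12.5. Its partner gene P4ha2, for an alternative catalytic subunit, went the other way: 5.31 to 5.93 in lens against 6.75 to 7.01 in body, a difference of -0.996 at E10.5 and -1.29 at E12.5.

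Vegfa, the growth factor that draws blood vessels, was the other HIF target higher at all 3 stages. It read 7.99, 8.04 and 8.09 at E10.5, 8.55, 7.94 and 7.89 at E11.5, then 9.06, 8.55 and 8.49 at E12.5, above the 7.44, 7.52, 7.63 and 7.65 of the body. The excess was 0.48, 0.57 and 1.14 (± 0.16 each), and its other probe set gave 1.60 at E12.5. Only the E12.5 call held when each array was left out in turn; without E11.5 replicate 1 the E11.5 value was 0.36 (limma adjusted p = 0.086), and the E10.5 call was lost without any of several arrays. Egln3, a HIF target that also limits HIF, was 0.26 above the body at E10.5 (not called) and below it at E11.5 (-0.83) and E12.5 (-1.23), with -0.92 and -0.74, both called, on its other probe set.

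The remaining targets gave isolated calls. Ddit4, an inhibitor of growth signalling through mTOR, was lower at E11.5 (-1.10 ± 0.23), where its arrays read 8.95, 7.91 and 8.20 against 9.34 to 9.57 in body. Higd1a, a small mitochondrial protein gene, was 0.37 higher at E10.5, a call lost without any of several arrays; at E12.5 its -0.21 was not called, and its 2 other probe sets were called higher (0.83 and 0.67). Bnip3, which marks mitochondria for removal, Egln1, Ankrd37 and the peptide hormone gene Adm were called at no stage on their own probe sets; their differences ran from -0.48 to 0.32. The other Adm probe set was called lower at all 3 stages (-0.54, -0.45 and -0.66). Its means were 4.515 to 4.727 in lens and 5.179 in body, near the 4.71 of the controls. Adm signals in the lens series were 5.59 to 6.28.

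Within the lens, more of the members fell than rose over the 2 days from E10.5 to E12.5. Of the 33 genes, 14 fell and 2 rose, where 13.2% and 8.91% of all genes tested were called, and the median change was -0.34 against -0.01 over all genes. Among enzymes 7 fell and 1 rose (median -0.41), among carriers 3 of 4 fell (median -1.68), among flux regulators 1 of 3 fell, neither HIF subunit was called, and among HIF targets 3 of 10 fell and 1 rose (median -0.26). Cell division markers moved the same way: all 9 measured fell, and their sums went from 16060 to 19480 at E10.5 to 5631 to 7819 at E12.5. Lens markers went from sums of 20460 to 33750 up to 36430 to 37310. Their part in the changes was not tested.

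**Figure D4:**
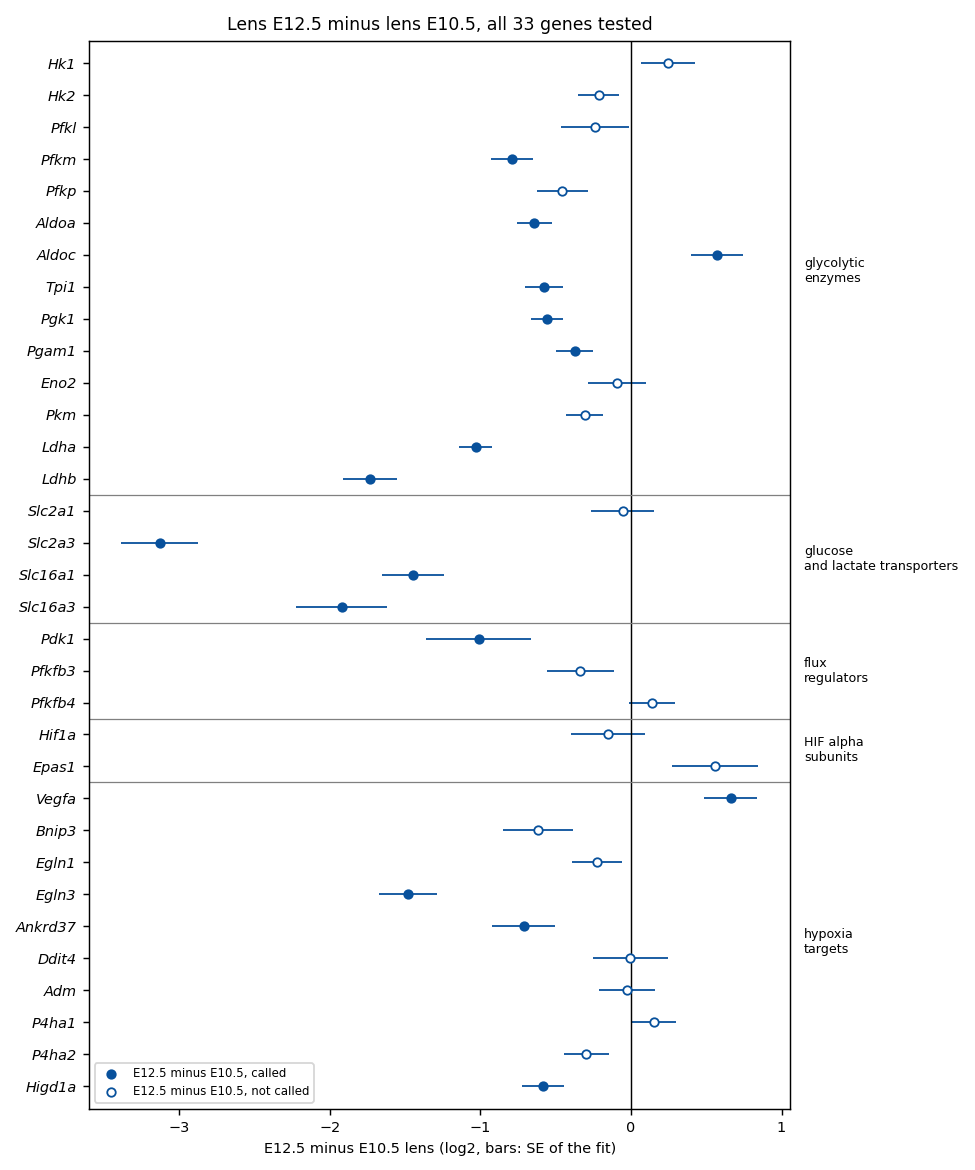
E12.5 lens minus E10.5 lens (log2, x axis; bars are the SE of the fit) for the 33 genes tested, in role groups; filled points were called. Of the called genes 14 lie left of 0, led by Slc2a3 at -3.13, and Aldoc and Vegfa lie to the right at 0.57 and 0.66.

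The largest fall was that of the neuronal-type glucose carrier Slc2a3, which was 8.76-fold lower at E12.5 than at E10.5 (-3.13 ± 0.26, limma adjusted p = 9.09e-08). The lactate exporter Slc16a3 fell 3.79-fold (-1.92 ± 0.30), Ldhb 3.33-fold (-1.73 ± 0.18) and Slc16a1 2.73-fold (-1.45 ± 0.20). Ldha fell 2.05-fold (-1.03 ± 0.11, limma adjusted p = 2.07e-06). Its 3 arrays at each stage did not overlap those of another stage, which was also true of Slc16a1, Pfkm, Aldoa, Tpi1, Pgk1 and Pgam1. The share of all genes separated in this way was not counted. Smaller falls were measured for Pfkm (-0.79), Aldoa (-0.64), Tpi1 (-0.58), Pgk1 (-0.56) and Pgam1 (-0.37). Of these 7 enzymes, 6 kept the call when each array was left out in turn, and Pgam1 did not. The Gapdh control sets changed by -0.21 to -0.30 and were not called (limma adjusted p = 0.139 to 0.233).

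Egln3 was the HIF target with the largest fall, from 6.10, 6.74 and 6.05 at E10.5 through 4.93, 5.34 and 5.37 to 4.61, 4.94 and 4.89 at E12.5 (-1.48 ± 0.19, limma adjusted p = 1.51e-05), ending near the 4.71 of the controls. Its other probe set gave -0.69 and was not called (limma adjusted p = 0.0951). Ankrd37 fell by 0.71 and Pdk1 by 1.01, both lost without some of the arrays. The 3 other probe sets of Pdk1 fell as well and were called (-1.13, -1.67 and -0.54). Higd1a fell by 0.58 on its own probe set, but its 2 other probe sets changed by 0.20 and 0.23, so its direction depends on the probes. The rises of Aldoc (0.57 ± 0.17) and Vegfa (0.66 ± 0.18) were also weaker: that of Aldoc was lost without any of 3 arrays, and that of Vegfa without E12.5 replicate 1 (0.48, limma adjusted p = 0.0658). The other probe set of Vegfa rose by 1.015, and that of Aldoc gave -0.21, not called, at means under the control level. Genes without a call over the 2 days included Slc2a1 (-0.06, 95% interval -0.49 to 0.38), P4ha1 (0.15, -0.16 to 0.46) and Hif1a (-0.15, -0.67 to 0.36).

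By single days the calls were few. From E10.5 to E11.5, 5 of the 33 genes fell (Pgk1, Ldha, Slc2a3, Slc16a1 and Egln3) and none rose, where 2.74% and 1.52% of all genes were called. Slc2a3 (-1.98 ± 0.26) and Egln3 (-1.08 ± 0.19) kept the call when each array was left out in turn; the other 3 did not, and the count was 2 without E10.5 replicate 1, E10.5 replicate 2 or E11.5 replicate 3. Fitted on those 6 arrays alone, 0 of 33 were called. From E11.5 to E12.5, 7 fell (Pfkm, Aldoa, Ldha, Ldhb, Slc2a3, Slc16a1 and Slc16a3) and none rose, against 3.45% and 3.02% of all genes. Ldhb (-1.27 ± 0.18), Slc16a3 (-1.71 ± 0.30) and Ldha (-0.61 ± 0.11) kept the call in every such omission. For this day the count fell to 4 when either E11.5 replicate 2 or, in its turn, E12.5 replicate 2 was left out and to 3 without E12.5 replicate 3. It was 4 with the replicate block, which treats same-numbered arrays as paired, and 1 on the 6 arrays alone. Slc2a3 lost its call for this day only without E12.5 replicate 3 (-1.04, limma adjusted p = 0.0585).

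The enzymes and the HIF targets can be set side by side, since Ldha, Pgk1, Aldoa and Slc2a1 are themselves known to respond to HIF. Over the 2 days 7 of the 14 enzymes fell and 1 rose, and 3 of the 10 targets fell and 1 rose, where 13.2% and 8.91% of all genes were called. The 2 rises, of Aldoc and Vegfa, were each lost when certain single arrays were left out. No test set one group against the other, because the genes of a group share arrays and are not replicates. Within the targets, Egln3 fell while Vegfa rose, and P4ha1 was over 4-fold above the body at each stage.

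The promoters of these genes show how widely a HIF-like motif is spread among them. RefSeq start sites on GRCm38.p6 gave a promoter for 34 of the 37 genes (not for Bnip3l, Slc2a3 and Epas1). The 250 bases before each start were searched on both strands for the 5-letter core of the hypoxia response element, ACGTG or GCGTG, overlaps with other motifs allowed. At least 1 match was found for 31 of 34 genes (91.18%), against 41.54% of all 27025 genes in the table and 59.79% of the 10694 genes both tested and in the table. By role it was 14 of 17 enzymes and 10 of 10 targets. With ACGTG alone it was 7 of 17 enzymes and 8 of 10 targets, and 58.82% of the listed genes against 24.45% of the tested ones. CpG dinucleotides, which both cores contain, had a median of 14 per member window and 15 per window of tested genes. A gene can have several windows and counts once if any holds a match. There were 48 windows for the 34 listed genes, 13717 for the 10694 tested ones and 32851 for all 27025. The listed genes thus had more windows per gene, which gives more room for a match. A match is a description of letters and not of binding. Some of the genes were listed as known HIF targets, so part of their higher share may come with the choice of genes.

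Printed here as examples are windows of 3 genes that fell in the lens (Ldha, Slc16a3 and Egln3). Beside them are windows of 2 genes above the body at every stage with no call over the 2 days (Slc2a1 and P4ha1). Since 31 of 34 genes held a match, finding it in both kinds says little. Tpi1, which also fell, held none, and Slc2a3 had no promoter in the table. Each is read 5′ to 3′ on the gene's strand and ends at the base before the start; capitals mark ACGTG or GCGTG or their reverse complements CACGT and CACGC. In Ldha the 2 runs CACGTG match on both strands.
Ldha, chr7:46845554-46845803 (+ strand): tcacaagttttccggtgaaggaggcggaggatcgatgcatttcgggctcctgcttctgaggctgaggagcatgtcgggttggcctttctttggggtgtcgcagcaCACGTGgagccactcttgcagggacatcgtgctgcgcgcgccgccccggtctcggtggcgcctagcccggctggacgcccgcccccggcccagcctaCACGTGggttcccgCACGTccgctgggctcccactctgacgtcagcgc
Slc16a3, chr11:120948817-120949066 (+ strand): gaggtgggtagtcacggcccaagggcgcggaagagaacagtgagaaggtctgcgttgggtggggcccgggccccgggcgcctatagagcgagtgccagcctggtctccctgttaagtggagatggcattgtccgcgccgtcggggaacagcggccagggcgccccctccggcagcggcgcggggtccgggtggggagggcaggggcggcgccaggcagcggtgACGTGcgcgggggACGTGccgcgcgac
Egln3, chr12:54203875-54204124 (- strand): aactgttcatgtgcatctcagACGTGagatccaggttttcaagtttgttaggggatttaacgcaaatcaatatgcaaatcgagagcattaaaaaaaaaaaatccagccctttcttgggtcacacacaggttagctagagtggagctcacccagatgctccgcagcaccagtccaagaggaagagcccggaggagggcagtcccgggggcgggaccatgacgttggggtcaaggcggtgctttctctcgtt
Slc2a1, chr4:119108495-119108744 (+ strand): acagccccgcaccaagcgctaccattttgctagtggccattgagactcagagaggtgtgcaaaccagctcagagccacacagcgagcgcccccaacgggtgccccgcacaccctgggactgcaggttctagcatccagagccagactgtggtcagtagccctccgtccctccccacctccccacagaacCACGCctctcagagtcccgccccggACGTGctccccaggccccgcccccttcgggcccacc
P4ha1, chr10:59323046-59323295 (+ strand): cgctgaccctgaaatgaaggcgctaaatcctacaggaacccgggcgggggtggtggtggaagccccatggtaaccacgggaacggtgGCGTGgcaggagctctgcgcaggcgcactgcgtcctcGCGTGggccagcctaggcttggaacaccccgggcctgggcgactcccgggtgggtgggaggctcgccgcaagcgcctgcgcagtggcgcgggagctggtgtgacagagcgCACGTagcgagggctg
In the Ldha window shown 5 matches were counted over both strands and in that of Egln3 1. The other Ldha window, chr7:46846832-46847081, held 1, a GCGTG. Of the Vegfa windows, not shown, chr17:46032378-46032627 held none and chr17:46025164-46025413, at a start further into the gene, held 2.

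Related genes outside the 37 were read from lists of the same pathways. Of 19 other glycolysis and sugar transport genes, 5 were higher and 4 lower in the E12.5 lens than in body, where 16.6% and 26.7% of all genes were called. Pgam2, the muscle phosphoglycerate mutase, stood out: 6.79 ± 1.42 (SD, n = 3) at E10.5, 7.10 ± 0.55 at E11.5, then 9.80 ± 0.09 at E12.5, against 7.52 ± 0.12 in body. It rose by 3.02 ± 0.45 (SE) over the 2 days (limma adjusted p = 5.44e-05), while Pgam1 fell by 0.37. Eno3, the muscle enolase, was 1.51 above the body at E12.5 (10.19 ± 0.11 against 8.68 ± 0.20). The 11 muscle markers summed to 370 to 414 in lens at E10.5, 433 to 533 at E11.5 and 576 to 625 at E12.5, against 10590 to 12810 in body. Over the 2 days 1 of them was called higher, where 8.91% of all genes were. The part of muscle cells in these values was not tested. At the low end, Slc2a2 (-1.23) lay at 3.66 in the lens, under the control level, and Slc16a7 was 1.09 lower.

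The list of pyruvate dehydrogenase, its regulators and the mitochondrial pyruvate carriers had 10 genes measured. At E12.5, 5 were lower and 1 higher in lens, where 26.7% and 16.6% of all genes were called, led by the phosphatase gene Pdp1 (-1.79 ± 0.24) and the kinase gene Pdk3 (-1.07), with Pdp2 at 0.46. Over the 2 days the carrier gene Mpc1 rose by 0.77 (limma adjusted p = 0.013) and no other member of the list was called. In the pentose phosphate pathway, Rpia was 1.66 lower than in body at E12.5 and fell by 0.57 over the 2 days, and Tkt fell by 0.37.

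HIF regulators and further HIF targets were read against all genes, of which 16.6% were higher and 26.7% lower. At E12.5, 2 of 15 regulators were higher and 4 lower: Cited2, a HIF-induced competitor for its coactivators, was at 0.95 and Rbx1 at 0.45, and Arnt2, a HIF partner known from neural tissue, was at -1.78 and Hif3a at -0.9996. Of 26 further targets 4 were higher and 9 lower. Lox, the collagen cross-linking oxidase, was 3.64 ± 0.24 lower (5.33 ± 0.18 against 8.97 ± 0.14), Tfrc 1.53 lower, Tpd52 1.77 higher and Gbe1 1.10 higher. Mesenchyme markers, 8 of 9 lower at E12.5, moved with Lox (sums 5335 to 6695 against 21180 to 24400); their part was not tested. Over the 2 days 3 of these targets rose and 3 fell, with Ndrg1 at 1.54, Bhlhe40 at 0.87, Rora at -1.22 and Ak4 at -1.16.

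The tooth germ at E13.5 gave a like number of calls against its own body. Of the 33 genes 8 were higher and 9 lower, where 16.6% and 25.3% of all genes were called, with a median of -0.02 against -0.04 over all genes. Enzymes gave 4 and 4 (2 to 3 lower with each array left out), carriers 2 and 2, flux regulators 1 and 0, HIF subunits 0 and 1 and HIF targets 1 and 2. The 3′ to 5′ control signal differed between tooth germ and body, neuron markers summed to 406 to 715 against 7236 to 8942 and erythroid markers to 14440 to 16590 against 17320 to 26160. The part of these in the tooth results was not tested. At the 3 Gapdh control sets the same comparison gave 1.23 at the 5′ set, -0.33 at the middle set and 0.22 at the 3′ set.

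In the tooth germ Pfkl read 7.59, 7.66 and 7.64 against 6.60, 6.61 and 6.22 in body (1.15 ± 0.23, limma adjusted p = 0.000472), and the groups did not overlap. Aldoc was 0.99 higher, Aldoa 0.79 (its most variable probe set gave -0.37) and Tpi1 0.69, while Ldhb was 1.43 lower (9.73 to 10.14 against 11.11 to 11.57), Pgk1 0.47, Eno2 0.54 and Pfkp 0.48 lower. Calls of Eno2 and Pfkp were lost without some of the arrays. The 2 other Pgk1 probe sets gave 0.08 and -0.03, neither called. Those of Tpi1 gave 0.49, called, and 0.04, not called. Of the 3 other Ldhb sets, 2 were called (-1.41 and -0.93) and 1 was not (-0.36). The 2 other Pfkp sets gave 0.49 and -0.255, not called, at means near or under the 4.71 of the controls. Slc2a1 read 11.33, 11.56 and 11.40 against 10.14, 9.94 and 10.71 (1.17 ± 0.21). The GLUT1 transcript was thus higher than in body in both tissues. Its 2 other probe sets gave 0.45 and 1.51 in tooth germ, both called. Slc16a3 was 0.79 higher, a call lost without any of the 6 arrays, and Slc2a3 and Slc16a1 were 0.86 and 0.77 lower, each with another probe set on the opposite side (0.32 and 0.17, not called). Those 2 sets read 4.315 and 4.447 in tooth germ and less in body, under the 4.71 of the controls. The Slc2a3 call was lost without tooth germ replicate 3 (-0.71, limma adjusted p = 0.0572).

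Among regulators and targets in the tooth germ, Adm gave the largest value. It read 5.98, 6.82 and 6.35 against 8.95, 8.88 and 8.87 in body, which is 5.74-fold lower (-2.52 ± 0.19, limma adjusted p = 4.39e-09), though its other probe set gave -0.22. That other Adm set read 4.405 in tooth germ and 4.627 in body, under the 4.71 of the controls. Egln3 was 0.98 higher (9.31 to 9.59 against 8.14 to 8.66), and its other probe set gave 1.07. P4ha1 was 0.80 lower (6.77, 6.60 and 6.96 against 7.67, 7.76 and 7.29), with 0.10 on its other probe set. Epas1 was 1.15 lower on its own probe set and 0.46 higher, called, on another. Pfkfb4 was 0.39 higher, a call lost without some of the arrays. Of the 14 called genes with another probe set, 7 had all probe sets on the same side, and for 1 a further probe set was called in the opposite direction.

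**Figure D5:**
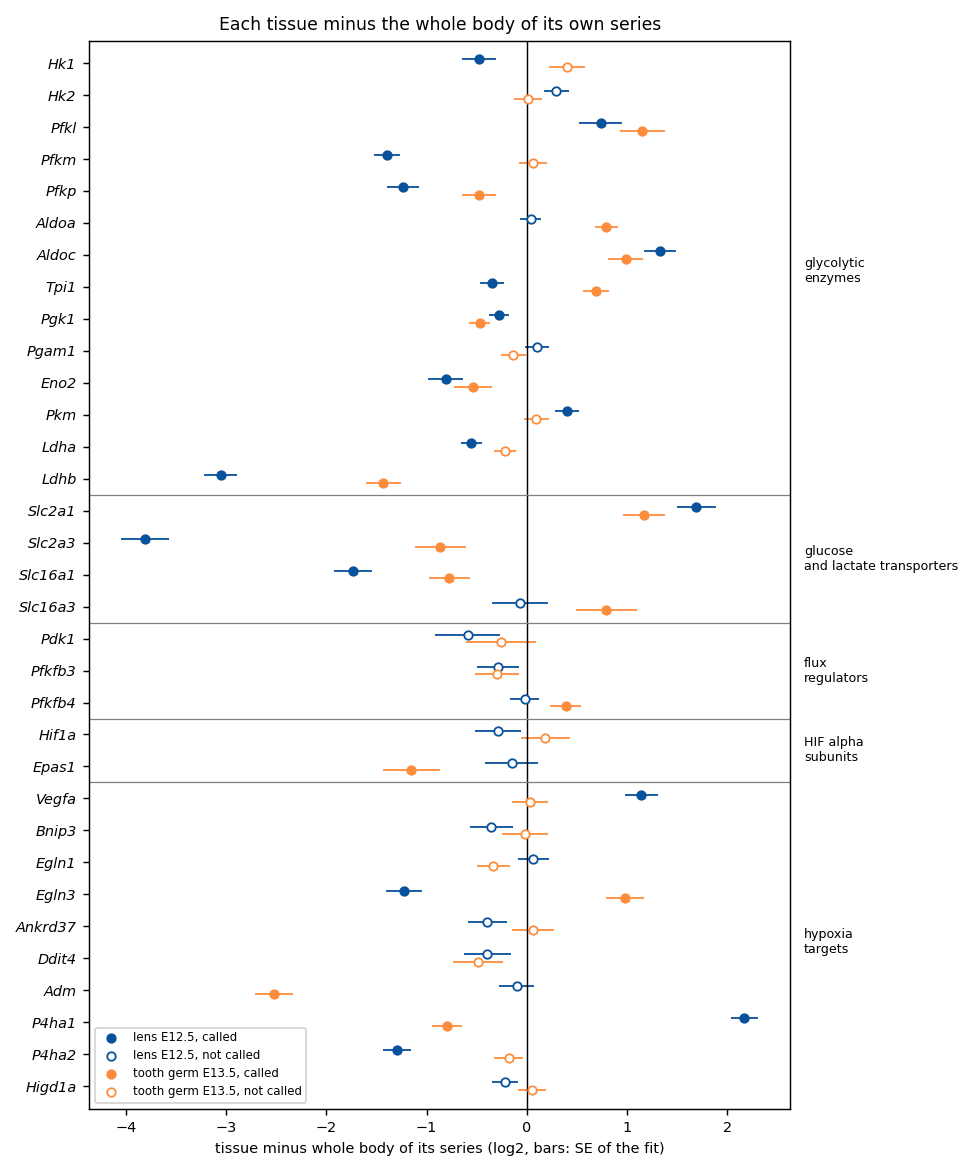
Lens E12.5 minus its whole body and tooth germ E13.5 minus its whole body (log2, x axis; bars are the SE of the fit) for the 33 genes tested, in role groups; filled points were called. Slc2a1, Pfkl and Aldoc lie to the right and Ldhb to the left in both tissues, while P4ha1 (2.17 and -0.80) and Egln3 (-1.23 and 0.98) lie on opposite sides.

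The difference between the tissues was tested directly, as the E12.5 lens difference minus the tooth difference. By that test 4 of the 33 genes were higher and 10 lower, where 19.2% and 20.4% of all genes were called. P4ha1 gave 2.97 ± 0.20 (limma adjusted p = 1.64e-09), Adm 2.42, Vegfa 1.11 and Epas1 1.00 on the higher side. The Epas1 call was lost without any of 11 arrays (limma adjusted p = 0.0554 to 0.1), and the other probe sets of Epas1 and Adm gave -0.29 and -0.44, not called. That of Adm lay near the control level. On the lower side were Slc2a3 (-2.95), Egln3 (-2.21), Ldhb (-1.63), Pfkm (-1.46), P4ha2 (-1.11), Tpi1 (-1.04), Slc16a1 (-0.96), Hk1 (-0.87), Aldoa (-0.76, but 0.468 on its most variable probe set) and Pfkp (-0.75). All 6 enzymes called were on the lower side, and of the 5 targets called 3 were on the higher. For Slc2a1 the value was 0.52 ± 0.28 and was not called (95% interval -0.07 to 1.12), while 1 of its 2 other probe sets was called at 1.93. Stage and series differ between the tissues and cannot be told apart from tissue here.

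The 2 whole-body groups, each of whole embryo, differed in 25 of the 33 genes. In the tooth-series body 10 were higher and 15 lower, where 31.8% and 31.8% of all genes were called. Pfkl (-3.37), Pkm (-2.75), Slc16a1 (-2.72) and Aldoa (-2.40) were lowest, and Adm (2.86) and Egln3 (2.45) highest. The Gapdh control sets differed by -6.10 at the 5′ end, -4.47 in the middle and -2.07 at the 3′ end. Among the 17 called genes with another probe set, 5 had a probe set called in the opposite direction, among them Aldoa (1.98) and Adm (-0.55), and other sets of Pfkl and Slc16a1 gave 0.21 and 0.23, not called. That Slc16a1 set read 4.28 in the tooth-series body and 4.05 in the lens-series body, under the 4.71 of the controls. Days, series and 3′ to 5′ signal cannot be told apart in this comparison.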

How the data were processed

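The members, role groups and other gene lists were chosen with earlier results of these data known. The authors deposited 1 intensity per probe set and array on a linear scale (5.4 to 25043.5); RMA and affy 0.7 are named per the submitters' processing notes, with no role or order. RMA brings arrays to a common distribution, so a change of total RNA per cell cannot be seen. From those intensities log2 was taken here, with no further normalization. The platform table names 1 gene for 34945 of 45101 probe sets, 34741 of which matched RefSeq GRCm38.p6 by gene ID. Each gene was read by the probe set that names it alone with the highest mean over 19 arrays, control sets left out. It was tested if above the median of all values (5.46) on at least 3 arrays.

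Groups were compared in 9 contrasts with limma 3.58.1 in R 4.3.3 (1 mean per group, eBayes, two-sided, Benjamini-Hochberg over 13320 genes), after a run on simulated data. Arrays of a group correlated at 0.965 to 0.995, and no 2 arrays shared more than 2.04% of their values. Depth does not apply to arrays; their number limits the precision. For E12.5 and E11.5 lens, all 3 same-numbered pairs deviated together (r = 0.614, 0.641 and 0.405), so the numbers were taken to pair the samples there, from the data and not from the labels. Elsewhere only some did, such as replicate 1 of E11.5 and E10.5 lens (0.576) and of E12.5 and E10.5 lens (0.502). The mean signal of bacterial control probe sets was high in replicate 1 of every lens stage and low in replicates 2 and 3 of E11.5 and E12.5. Its part in the pairing was not tested. All members are named; from each other pathway list at most the 2 highest and 2 lowest called genes per comparison, and of marker lists only sums. Alternatives changed the normalization, filter, probe set, arrays, variance model and block, and left out each array in turn; the fit on 13 lens-series arrays, the block on 6 arrays and the Gapdh control sets were added after seeing the data. Promoters came from the RefSeq table with Python 3.11.15.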

Additional observations from a re-analysis of the deposited data

Results flagged for a closer look

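In the whole body of the lens series, replicate 3 stood apart from the other 3 arrays for Slc16a1 (10.1072) and replicate 2 for Pdk1 (8.326), by a gap over the 95% limit for 4 samples. Of 33 genes tested this way about 1 in 20 would be marked by chance.

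The lens difference at E12.5 and the tooth difference, each from its own body, differed by limma's test for 14 genes. The lower ones were Hk1 (-0.8727), Pfkm (-1.4552), Pfkp (-0.754), Aldoa (-0.7562), Tpi1 (-1.0361), Ldhb (-1.6253), Slc2a3 (-2.9464), Slc16a1 (-0.9618), Egln3 (-2.206) and P4ha2 (-1.109). The higher ones were Epas1 (0.9997), Vegfa (1.1132), Adm (2.418) and P4ha1 (2.9661). The Epas1 call was lost without any of 11 arrays, and the other probe sets of Epas1 and Adm gave -0.288 and -0.442, that of Adm near the control level. The tooth-series arrays also differ from the lens-series arrays in 3′ to 5′ control signal, whose part was not tested.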

How the results depend on the processing

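Counts of called members stayed within 1.5 times of the reported value under most alternatives; those that did not follow. For lens E10.5 against body (21 reported) arrays with high bacterial control signal gave 12. For E11.5 against E10.5 lens (5) the compared arrays alone gave 0, the replicate block 2, the bacterial control block 3, the low-signal arrays 0 and the 13 lens-series arrays 2. For E12.5 against E11.5 (7) the largest-variance probe set gave 4, the compared arrays alone 1, the paired fit (replicate block) 4, the high-signal arrays 3 and the 13 arrays 4; with the block on the 6 arrays it was 6. For E12.5 against E10.5 (16) the high and the low-signal arrays gave 9 each. The replicate block moved no other count by over 1.5 times. Leaving out each array gave 16 to 18, 16 to 20 and 15 to 19 for the 3 lens stages against body, 2 to 6, 3 to 7 and 12 to 15 between lens stages in the order above, 13 to 15 (17 reported) for tooth, 13 to 14 (14) for the lens and tooth difference and 21 to 25 (25) for the bodies.

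Another probe set rule turned these members, with the cause not tested. With the mean of all probe sets, Higd1a gave 0.4273 for E12.5 against body, -0.8081 for tooth and 1.2354 for lens against tooth, Pgk1 -0.3397 for lens against tooth, and between bodies Slc2a3 -0.7095, Pdk1 0.5973 and Vegfa 0.4052. With the largest variance, Higd1a gave 0.8279 for E12.5 against body, 0.1998 for E12.5 against E10.5, -1.0504 for tooth and 1.8783 for lens against tooth. The same rule gave Aldoa -0.3747, Hif1a -0.8607 and P4ha1 0.1027 for tooth, Aldoa 0.468 and Pgk1 -0.5626 for lens against tooth, and Pdk1 1.7339 and Vegfa 1.2007 between bodies.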
